A study of Mus musculus with 6 samples.

Results

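The enzymes described here start mucin-type O-glycans and build their first cores. They are 7 polypeptide GalNAc-transferases (Galnt1, Galnt2, Galnt3, Galnt4, Galnt7, Galnt10 and Galnt11), the core 1 enzyme C1galt1 with its chaperone C1galt1c1, and the core 2 branching enzyme Gcnt1. They were taken by gene name from the deposited table of transcript FPKM (fragments divided by transcript length and by library size). The transcripts of each gene were summed. The rule used no measured value, but the enzymes were chosen with earlier results of these data known. The 10 genes have 21 of the 59192 transcripts and are 10 of the 21801 genes in that table.

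Mucin-type O-glycosylation begins in the Golgi, where polypeptide GalNAc-transferases move GalNAc from UDP-GalNAc onto serine or threonine. Some of these enzymes act on bare peptide and others prefer a peptide that already carries GalNAc. T-synthase, the product of C1galt1, then adds galactose to make core 1, and it needs the chaperone Cosmc, the product of C1galt1c1, to fold. Gcnt1 adds GlcNAc to core 1 to make the branched core 2, and sialyltransferases cap the ends of these chains.

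All 6 libraries came from B16F10-OVA, a mouse melanoma line that expresses ovalbumin in both groups. 3 libraries were from cells given 50 µM Ac4ManNAz, an azide-bearing mannosamine sugar with acetyl-masked hydroxyls that cells turn into azido sialic acid, from day 0 until RNA isolation on day 5, with a passage on day 3. The other 3 were from untreated cells handled on the same days. The labels do not say whether libraries of a group were separate cultures, so p-values cover no more than the scatter of these 6 libraries, and part of that scatter may be technical. The ovalbumin transgene was not analysed here.

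Depth implied by the smallest steps of the FPKM values was 30400000 to 46000000 fragments per library, and 13912 to 18974 genes were above 0. All 7 melanocyte markers averaged at least 1 FPKM, with a summed level of 7431 to 9093 FPKM in Ac4ManNAz libraries and 7636 to 9313 FPKM in untreated libraries. Within this sum, Mlana had 1269, 158 and 935 FPKM with Ac4ManNAz and 976, 1138 and 856 FPKM without. Ac4ManNAz replicate 2 thus stood apart for this marker. Of 5 leukocyte markers 2 averaged at least 1 FPKM, summing to 3.07 to 5.39 FPKM with Ac4ManNAz and 3.17 to 4.89 FPKM without. No marker of fibroblasts, endothelium or keratinocytes averaged 1 FPKM, and none of these 3 lists summed to more than 1.41 FPKM in a library.

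None of the 9 enzyme genes that could be tested passed the test between Ac4ManNAz-treated and untreated cells. Their log2 differences (Ac4ManNAz minus untreated) lay between -0.06 and 0.17, and in none of the 9 did the values of the groups separate. By limma on log2(FPKM + 1), with Benjamini-Hochberg adjustment over all 9925 genes that averaged at least 1 FPKM, the adjusted p of each was 0.9998. None of the 9 was under an unadjusted p of 0.05 either. Among all genes tested 0.0% passed at an adjusted p of 0.05, 1.78% (177 genes) were under an unadjusted p of 0.05, and 5.8% had groups that did not overlap. A share of 0 among 9 genes is therefore near the background. In bulk RNA such as this, fewer cells expressing a gene and less RNA per cell cannot be told apart.

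Intervals and folds here are of FPKM + 1, so for the genes at a few FPKM the corresponding range in FPKM is wider. The 95% moderated interval lay within 2-fold for 9 of 9 enzyme genes, against 91.0% of all genes tested, and within 1.5-fold for 8 of 9, against 64.3%. Galnt10 was the exception, with an upper bound of 1.56-fold. Of the 9 genes, 6 averaged higher and 3 lower with Ac4ManNAz, where 49.6% of all genes tested averaged higher. Their median log2 difference was 0.04, beside -0.00 over all genes, and their median absolute difference was 0.06, beside 0.10. The sign of that median was not stable, at -0.046 without Ac4ManNAz replicate 2 and 0.096 without Ac4ManNAz replicate 1.

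**Figure D1:**
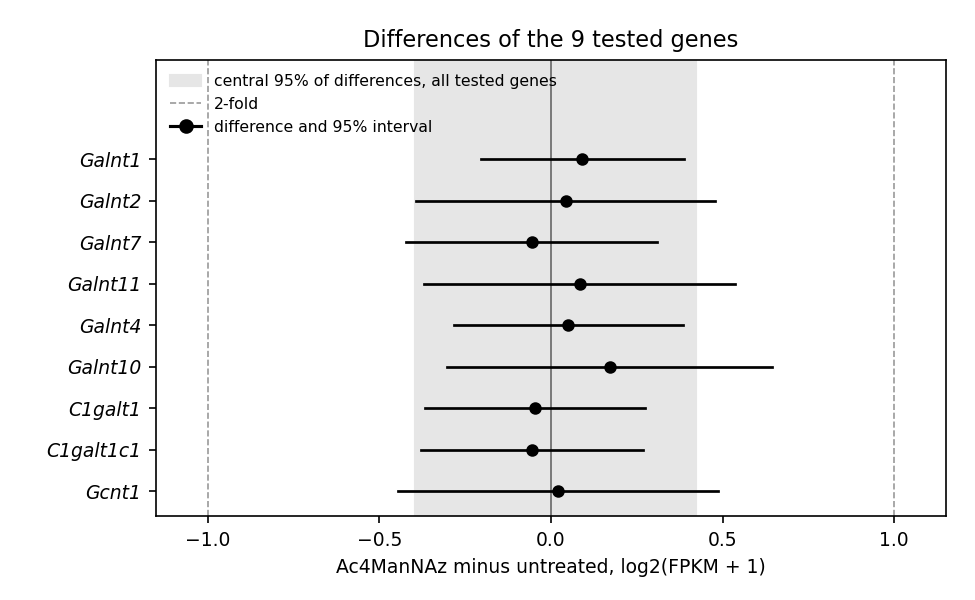
Log2 difference of each gene (Ac4ManNAz minus untreated, on the log2(FPKM + 1) scale) with its 95% moderated interval from 3 libraries a group. Every interval spans 0 and lies inside the dashed 2-fold lines, and Galnt10 lies farthest from 0, at 0.17.

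The transcript levels of these enzymes in FPKM, which is per transcript length, covered a wide range. Over all 6 libraries Galnt1 was highest, at a mean of 45.3 FPKM. C1galt1 (17.99 FPKM), Galnt2 (17.8 FPKM) and C1galt1c1 (12.5 FPKM) came next, followed by Galnt7 (8.01 FPKM) and Galnt11 (7.56 FPKM). Gcnt1 (3.27 FPKM), Galnt4 (2.65 FPKM) and Galnt10 (2.16 FPKM) were lower, and Galnt3 averaged 0.006 FPKM. The 6 values of neighbouring genes did not overlap at 4 places in this order, between Galnt1 and C1galt1, C1galt1c1 and Galnt7, Galnt11 and Gcnt1, and Galnt10 and Galnt3. The other 5 pairs of neighbours overlapped. C1galt1 exceeded Galnt2 in 4 of 6 libraries and Galnt7 exceeded Galnt11 in 3 of 6, whereas Galnt2 exceeded C1galt1c1, and Galnt4 exceeded Galnt10, in 6 of 6.

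**Figure D2:**
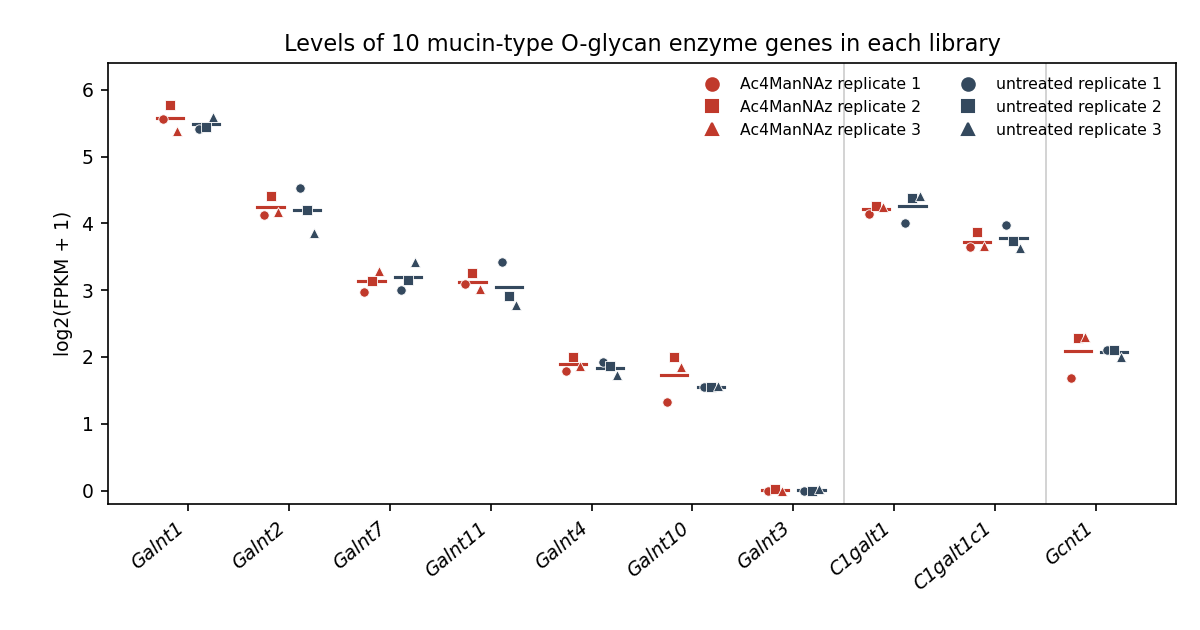
Level of each gene as log2(FPKM + 1) in 3 Ac4ManNAz and 3 untreated libraries, 1 point a library. A bar marks the group mean of the log2 values. The groups overlap for every gene, and levels run from Galnt1, near 45.3 FPKM, to Galnt3, listed at 0 in 4 of 6 libraries.

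Galnt1 (ENSMUSG00000000420, chromosome 18, 24338401 to 24419875 as deposited, with no build stated) is a widely expressed initiating enzyme that acts on bare peptide. It had 46.2, 53.5 and 40.8 FPKM in Ac4ManNAz libraries, against 41.5, 42.4 and 47.3 FPKM in untreated libraries. The groups overlapped, with Ac4ManNAz replicate 2 the highest and Ac4ManNAz replicate 3 the lowest of all 6. The means were 46.8 ± 6.41 FPKM with Ac4ManNAz and 43.7 ± 3.14 FPKM without (SD, n = 3 each). The log2 difference was 0.09 (95% interval -0.20 to 0.39). Without Ac4ManNAz replicate 2 it was -0.0077.

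The way Galnt1 was divided among its 4 listed transcripts set Ac4ManNAz replicate 2 apart. Galnt1-208 was listed at 1.78, 31.3 and 3.05 FPKM with Ac4ManNAz, and at 1.73, 1.21 and 2.47 FPKM without. It made up 58.5% of the gene in Ac4ManNAz replicate 2 and 2.86% to 7.48% in the other 5 libraries. Galnt1-206, the main transcript elsewhere, was 24.6% of the gene in that library and 53.0% to 68.2% in the others. Per the GENCODE M21 annotation, Galnt1-206, Galnt1-208 and Galnt1-201 share the same coding exons of 1677 bases, and Galnt1-208 has 12 exons to the 13 of Galnt1-206. As deposited, Galnt1-208 spans 24365654 to 24419867, against 24338824 to 24419867 for Galnt1-206. The remaining listed transcript, Galnt1-203, has a coding length of 427 bases and made up 15.9% to 22.4% of the gene. Summed Galnt1 levels, and the ratios and shares built on them, include this shorter transcript. Galnt1-208 had groups that overlapped and did not pass the limma test on transcripts. Of 7390 genes with several transcripts, 82 had a transcript share at least 40 percentage points apart in Ac4ManNAz replicate 2 alone, with the other 5 libraries within 20 points of each other, against 93 and 76 in the other Ac4ManNAz libraries and 73, 62 and 75 in untreated libraries. Such a split of Galnt1 in 1 library is thus 1 of many of its kind in each library.

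**Figure D3:**
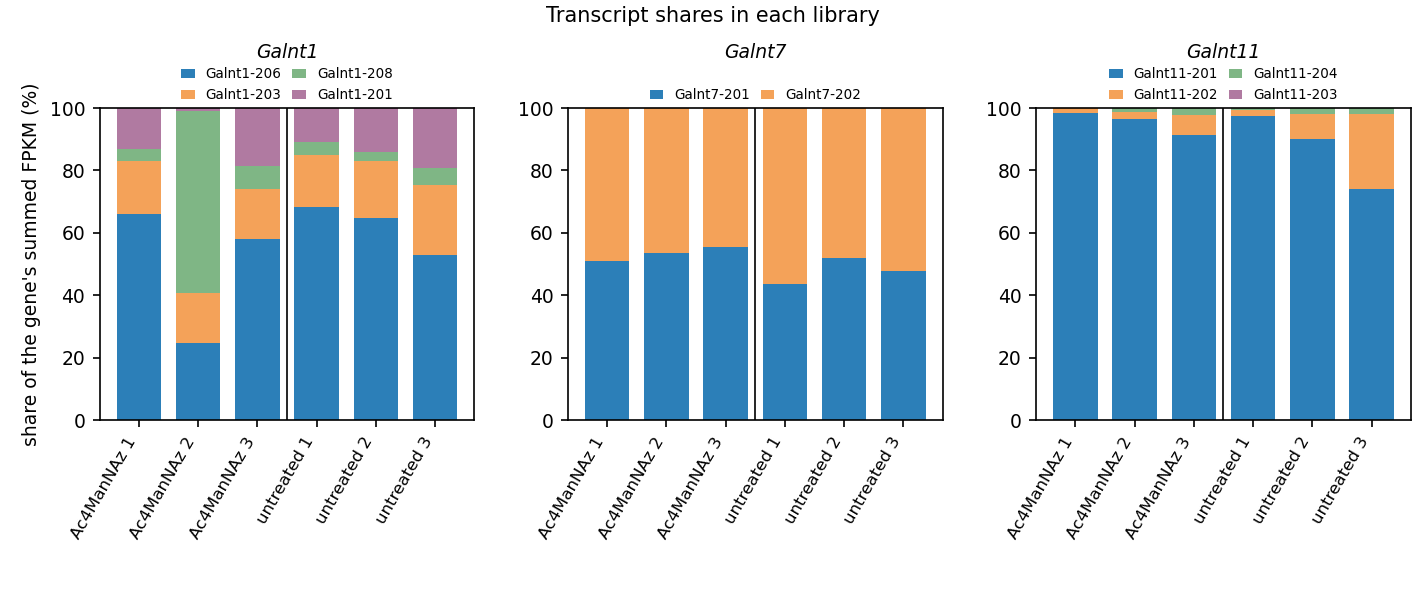
Share of each gene's summed FPKM given to each listed transcript, in percent, with the 3 Ac4ManNAz libraries left of the 3 untreated ones. Galnt1-208 takes 58.5% in Ac4ManNAz replicate 2 and at most 7.48% elsewhere, while the Galnt7 pair stays between 44.5% and 56.4% for Galnt7-202.

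Galnt2 (chromosome 8, 124958130 to 125072461 as deposited), another broadly expressed initiating enzyme, was listed with 1 transcript. It had 16.5, 20.3 and 17.0 FPKM in Ac4ManNAz libraries and 22.1, 17.3 and 13.5 FPKM in untreated libraries. Both the highest and the lowest value were from untreated cells, so the Ac4ManNAz values lay inside their range. On the log2 scale the difference was 0.04 (95% interval -0.39 to 0.48).

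The ratio of Galnt1 to Galnt2 had a wider range in untreated libraries. Galnt1 over Galnt2, in FPKM, was 2.80, 2.63 and 2.40 with Ac4ManNAz and 1.88, 2.45 and 3.49 without. All 3 treated ratios fell between the lowest and highest untreated ratio.

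Galnt7 (chromosome 8, 57976862 to 58106065 as deposited) prefers peptides that already carry GalNAc. It had 6.88, 7.84 and 8.73 FPKM with Ac4ManNAz, against 7.02, 7.89 and 9.69 FPKM without, so each group covered nearly the same range. The log2 difference was -0.06 (95% interval -0.42 to 0.31).

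Galnt7 had a pair of listed transcripts with coding sequences of equal length that differ in sequence. Galnt7-201 and Galnt7-202 each have 12 exons and the same coding length of 1971 bases, but a different exon 6. The alternative exons are shown because they are the coding difference between the pair of transcripts that shared the gene's FPKM. Both are 183 bases long, 61 codons, and lie on the minus strand in GRCm38 (GENCODE M21), at chr8:57542512-57542694 for Galnt7-201 and chr8:57542835-57543017 for Galnt7-202. They have the same base at 126 positions (68.9%). They are written 5′ to 3′ on the coding strand, and capitals mark the positions where they differ.
Galnt7-201 exon 6: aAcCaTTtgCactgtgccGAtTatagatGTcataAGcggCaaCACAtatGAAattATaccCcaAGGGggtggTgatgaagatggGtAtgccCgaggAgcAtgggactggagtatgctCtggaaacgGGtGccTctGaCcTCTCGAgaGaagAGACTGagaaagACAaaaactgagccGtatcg
Galnt7-202 exon 6: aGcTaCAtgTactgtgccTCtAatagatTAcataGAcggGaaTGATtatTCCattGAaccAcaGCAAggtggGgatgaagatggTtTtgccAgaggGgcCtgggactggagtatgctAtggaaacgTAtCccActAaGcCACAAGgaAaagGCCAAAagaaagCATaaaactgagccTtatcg
The pair also differs by 872 bases at the 3′ end, so the division of fragments between them may rest on that end as well as on exon 6.

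Both Galnt7 transcripts were present in every library at similar levels. Galnt7-202 made up 49.0%, 46.6% and 44.5% of the gene with Ac4ManNAz, against 56.4%, 48.2% and 52.3% without. The ranges overlapped between Ac4ManNAz replicate 1 and untreated replicate 2, with means of 46.7 ± 2.21% with Ac4ManNAz and 52.3 ± 4.11% without (SD, n = 3 each). By the limma test on 14846 transcripts, the log2 difference was -0.18 for Galnt7-202 and 0.08 for Galnt7-201. None of the 13 enzyme transcripts tested passed, none was under an unadjusted p of 0.05 and none had groups that separated, where 0.0606% of all transcripts passed (9), 2.54% were under an unadjusted p of 0.05 and 6.39% separated.

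Galnt11 (chromosome 5, 25427880 to 25470916 as deposited), which glycosylates receptors of the LDL receptor family, had 7.53, 8.57 and 7.12 FPKM with Ac4ManNAz. Untreated libraries had 9.76, 6.55 and 5.85 FPKM, again wider than the treated ones on both sides. This gave a log2 difference of 0.08 (95% interval -0.37 to 0.54). Galnt11-201 carried most of it, and Galnt11-202, with the same coding exons of 1824 bases, made up 23.8% in untreated replicate 3 and 1.45% to 8.22% elsewhere.

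Galnt4 (chromosome 10, 98944021 to 98949109 as deposited) is a single-exon gene of a polypeptide GalNAc-transferase. It had 2.47, 3.00 and 2.66 FPKM with Ac4ManNAz and 2.79, 2.66 and 2.30 FPKM without, with a log2 difference of 0.05 (95% interval -0.28 to 0.38). The groups overlapped over most of their range. In GENCODE M21, 420 of its 5089 exonic bases also lie in an exon of Poc1b by position, so part of its fragments may be uncertain.

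Galnt10 (chromosome 11, 57536268 to 57678340 as deposited), like Galnt7 an enzyme that prefers GalNAc-bearing peptides, showed the largest difference of the 9 genes with all 6 libraries and summed transcripts. Read from the most abundant transcript of each gene, Galnt1 stood farther from 0 (-0.33, against 0.22 for Galnt10). Without Ac4ManNAz replicate 2 C1galt1c1 stood farthest (-0.13), and without Ac4ManNAz replicate 3 Galnt1 did (0.18, against 0.11 for Galnt10). Without untreated replicate 1 it was Galnt11 (0.28, against 0.17 for Galnt10). Galnt10 had 1.51, 3.00 and 2.61 FPKM with Ac4ManNAz, against 1.92, 1.93 and 1.97 FPKM without. Ac4ManNAz replicates 2 and 3 were above all untreated libraries and Ac4ManNAz replicate 1 was below all of them, so the treated values enclosed the untreated ones. Means were 2.38 ± 0.771 FPKM with Ac4ManNAz and 1.94 ± 0.026 FPKM without (SD, n = 3 each). The log2 difference was 0.17 (95% interval -0.30 to 0.64). Leaving out 1 library at a time moved it between 0.035, without Ac4ManNAz replicate 2, and 0.37, without Ac4ManNAz replicate 1. It was 0.11 without Ac4ManNAz replicate 3. The value without Ac4ManNAz replicate 1 had an unadjusted limma p of 0.0421 and an adjusted p of 0.7991. In that fit 532 of 9938 genes were under an unadjusted p of 0.05. Galnt10-201 made up 63.8% to 79.2% of the gene, and the shorter Galnt10-202 has a coding length of 402 bases to 1809 for Galnt10-201.

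Galnt3 (chromosome 2, 65913110 to 65955338 as deposited), known for glycosylating the phosphate hormone FGF23, was near 0. It was listed at 0, 0.0159 and 0 FPKM in Ac4ManNAz libraries and at 0, 0 and 0.0203 FPKM in untreated libraries. These values come to between 0 and 2 fragments a library, and the gene was below the level needed for the test.

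Galnt3 shared that near-absence with most of its family. Of 19 polypeptide GalNAc-transferase genes, 7 averaged at least 1 FPKM, of which 6 are among the 10 enzymes and the other is Galnt12. No value of the remaining 12 exceeded 0.0856 FPKM. Galnt12 averaged 18.1 ± 4.63 FPKM with Ac4ManNAz and 18.9 ± 3.62 FPKM without (SD, n = 3 each), a level near that of Galnt2, and its log2 difference was -0.08. Summed over the family, levels were 102, 109 and 100 FPKM with Ac4ManNAz and 101, 96.7 and 104 FPKM without. Galnt1 made up 45.0 ± 4.17% of that sum with Ac4ManNAz and 43.5 ± 2.31% without (SD, n = 3 each), with overlapping ranges.

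C1galt1 (chromosome 6, 7844842 to 7875687 as deposited), which encodes T-synthase, had 16.6, 18.3 and 18.02 FPKM in Ac4ManNAz libraries and 15.1, 19.7 and 20.2 FPKM in untreated libraries. All treated values lay between the lowest and the other untreated ones. Its log2 difference was -0.05 (95% interval -0.37 to 0.27).

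C1galt1c1 (chromosome X, 37719662 to 37723964 as deposited), the gene of Cosmc, had 11.6, 13.6 and 11.6 FPKM with Ac4ManNAz and 14.8, 12.4 and 11.3 FPKM without. The treated values again lay inside the untreated range, and the log2 difference was -0.06 (95% interval -0.38 to 0.27). T-synthase transcript over chaperone transcript, in FPKM, was 1.43, 1.34 and 1.55 with Ac4ManNAz, against 1.02, 1.60 and 1.78 without. The enzyme exceeded its chaperone in all 6 libraries, by the least in untreated replicate 1.

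Gcnt1 (chromosome 19, 17303505 to 17350208 as deposited), the core 2 enzyme, had 2.22, 3.88 and 3.91 FPKM with Ac4ManNAz and 3.31, 3.30 and 2.99 FPKM without. As for Galnt10, Ac4ManNAz replicates 2 and 3 were above all untreated libraries and Ac4ManNAz replicate 1 below them. Its log2 difference was 0.02 (95% interval -0.45 to 0.49). C1galt1 over Gcnt1, in FPKM, was 7.46, 4.70 and 4.61 with Ac4ManNAz and 4.56, 5.98 and 6.75 without, so core 1 transcript exceeded core 2 transcript in every library. Gcnt1-201, with the same coding exons as the main Gcnt1-203, made up 17.9% in untreated replicate 2 and was listed at 0 in the other libraries.

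The spread between libraries was larger than counting error for most of these genes. Implied fragments per library ran from 4838 to 6858 for Galnt1 down to 218 to 397 for Galnt10, for which counting alone would give an SD of 1.44% and 6.78% of the value. Of 18 group SDs, 17 exceeded the counting SD of their gene, with untreated Galnt10 (1.35%) the exception. The SD was 32.5% of the mean with Ac4ManNAz and 1.35% without for Galnt10, and 29.0% with Ac4ManNAz and 5.64% without for Gcnt1. For Galnt11 it was 9.64% with Ac4ManNAz and 28.2% without, for Galnt2 11.6% with Ac4ManNAz and 24.3% without, and for C1galt1 5.15% with Ac4ManNAz and 15.3% without. Over all genes tested the median was 13.96% with Ac4ManNAz and 14.05% without.

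**Figure D4:**
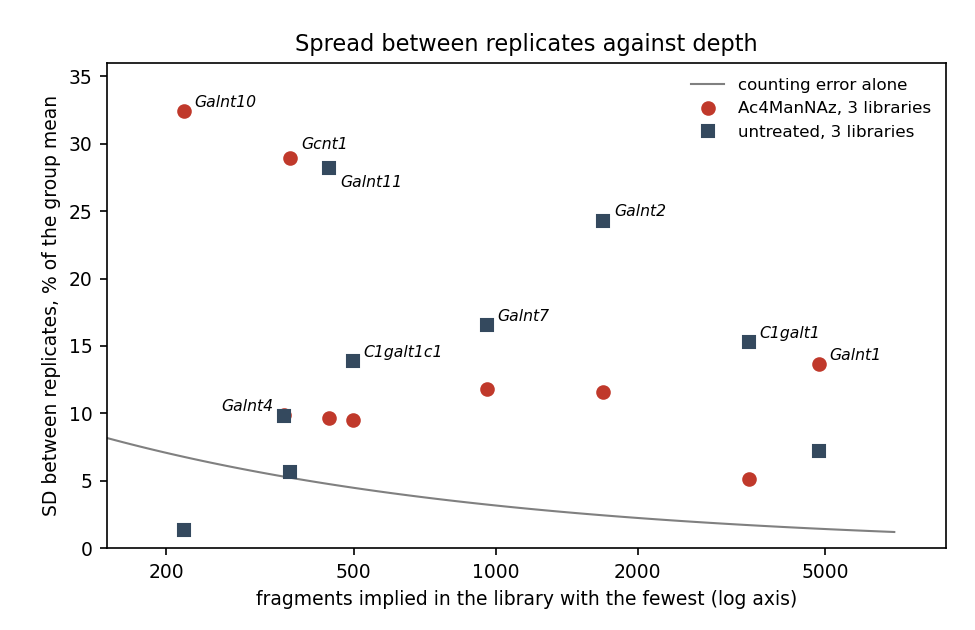
SD between the 3 libraries of a group, in percent of the group mean, against the fragments implied in the gene's shallowest library (log axis), with the SD that counting alone gives as a line. Most points lie above the line, and untreated Galnt10, at 1.35%, lies below it.

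The same libraries took the extreme places for many of these genes. Untreated replicate 2 lay between untreated replicates 1 and 3 for 9 of 9 genes, where it did so for 45.8% of all genes tested. Untreated replicate 1 was the highest of its group for Galnt2, C1galt1c1, Galnt11, Gcnt1 and Galnt4, and the lowest for Galnt1, C1galt1, Galnt7 and Galnt10. Ac4ManNAz replicate 1 was the lowest treated library for 7 of 9 genes, where this held for 40.6% of all genes, and Ac4ManNAz replicate 2 the highest for 7 of 9, where this held for 39.2%. The 9 genes share these libraries and are not independent.

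Promoter windows of 300 bases around the RefSeq transcription start (GRCm38.p6), of which 6 of the 10 genes had at least 1, differed in their number of CG dinucleotides, a feature of broadly active promoters. The C1galt1 window held 52, Galnt3 41, Galnt10 28 and Galnt7 25, where the median of 32851 windows was 7. Galnt11 had windows with 23 and 7, and Gcnt1 windows with 16, 3 and 2. The window of Galnt3, a gene near 0 FPKM here, thus held more CG dinucleotides than 96.5% of all windows.

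Other genes of the pathway were likewise without a call. In each of the next 4 lists, none passed limma's adjusted p of 0.05 and none was under an unadjusted p of 0.05. Of 11 other core and extension enzymes 5 were tested, 3 averaging higher and 2 lower with Ac4ManNAz. B4galt5, a galactosyltransferase with the highest level of these, averaged 18.01 ± 2.67 FPKM with Ac4ManNAz and 19.04 ± 3.70 FPKM without. B4galt4, a galactosyltransferase with the smallest p, averaged 3.16 ± 0.545 FPKM with Ac4ManNAz and 2.39 ± 0.852 FPKM without (SD, n = 3 each).

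Of 7 sialyltransferases that cap O-GalNAc glycans 5 were tested, 3 averaging higher and 2 lower, with groups that did not overlap for 2, where 5.8% of all genes tested had such groups. St3gal1, which adds sialic acid to the galactose of core 1, was one of these 2. It had 20.5, 26.0 and 25.9 FPKM with Ac4ManNAz and 20.1, 19.98 and 18.7 FPKM without, with Ac4ManNAz replicate 1 just above the untreated libraries. Its log2 difference was 0.28 with an adjusted limma p of 0.9998. The other, St6galnac4, which sialylates the inner GalNAc, was named after its values were seen. It averaged 6.12 ± 2.26 FPKM with Ac4ManNAz and 8.02 ± 0.513 FPKM without (SD, n = 3 each). Its values were 7.41, 7.44 and 3.51 FPKM with Ac4ManNAz and 7.95, 8.56 and 7.55 FPKM without. Ac4ManNAz replicates 1 and 2 thus lay just below the untreated libraries. St3gal4 had the highest level, at 56.3 ± 9.69 FPKM with Ac4ManNAz and 64.4 ± 6.69 FPKM without.

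All 8 genes of donor sugar supply were tested, 5 averaging higher and 3 lower, with groups that did not overlap for 1, Galt, against 5.8% of all genes tested. Ugp2, which makes UDP-glucose, had the highest level, at 262 ± 38.7 FPKM with Ac4ManNAz and 249 ± 57.8 FPKM without. Galt, a galactose-handling uridylyltransferase with the smallest p, averaged 7.87 ± 0.402 FPKM with Ac4ManNAz and 7.25 ± 0.147 FPKM without (SD, n = 3 each).

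Of 12 proteins known to carry O-GalNAc glycans 8 were tested, 3 averaging higher and 5 lower, all with overlapping groups. Lamp1, a lysosomal membrane glycoprotein, was highest at 321 ± 14.2 FPKM with Ac4ManNAz and 319 ± 17.3 FPKM without. Lrp1, an endocytic receptor, had the smallest p, at 2.22 ± 1.25 FPKM with Ac4ManNAz and 1.48 ± 0.889 FPKM without (SD, n = 3 each). The median log2 differences of the 4 lists were 0.13 for core and extension enzymes, 0.12 for sialyltransferases, 0.05 for donor supply and -0.04 for carrier proteins, beside -0.00 over all genes.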

How the data were processed

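Total RNA was depleted of rRNA and made into stranded libraries, per the labels' protocols. The authors deposited 1 table of FPKM per annotated transcript and library, and no counts. The aligner, the quantifier and the genome build (not given in the sources used here) are unknown. Deposited positions differ from those of the same transcripts in GENCODE M21 (GRCm38), so the Galnt7 exons, given in GRCm38, lie outside the deposited span of that gene and the coordinates of the sources are not to be compared. Transcripts were summed per gene, and genes averaging at least 1 FPKM went into limma 3.58.1 (R 4.3.3; eBayes with trend, two-sided) on log2(FPKM + 1), with group as the only term. This scale understates the differences of low genes. Fragments were implied from the smallest steps of FPKM times GENCODE M21 length. In each library 297 to 509 of 962 to 2753 low values lay within 2% of 1, 2 or 3 steps, against 30 to 123 at 1.5, 2.5 or 3.5 steps. These fragments are approximate, cover counting error only, and were not used in a count test. Where a gene's transcripts overlap, the authors' estimation decides the split between them.

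The enzymes and lists were chosen with earlier results of these data known. All 10 enzymes are named, and of each other list the gene with the highest level and the one with the smallest unadjusted p. Replicate numbers come from the sample titles. Alternatives were another pseudocount, other filters, scalings and eBayes settings, the most abundant transcript per gene, a block for the replicate number, and each library left out. Tables and plots were made with Python 3.11.15, pandas 2.3.3 and matplotlib 3.10.9.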

Additional observations from a re-analysis of the deposited data

How the results depend on the processing

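No enzyme gene passed the limma test under any of the 15 settings. Transcripts were tested in all of these except the most abundant transcript per gene, and no enzyme transcript passed. Of 132 recomputed log2 differences of enzyme genes, 116 kept their direction and 16 did not. The eBayes settings, the filters and the replicate block cannot change a gene's difference, so their values kept direction by construction. So did genes listed with 1 transcript when read from the most abundant transcript. The median of the enzyme genes changed sign. It was -0.046 without Ac4ManNAz replicate 2, -0.0077 without untreated replicate 3 and -0.0018 at a mean of at least 5 FPKM. Each shift was under 0.107, the SD between single libraries of a group in the median log2 level of these genes. That SD is not the error of a difference between group means. When each gene was read from its most abundant transcript, Galnt1 stood at -0.33 and Galnt7 at 0.078. Leaving out 1 library at a time gave -0.17 to 0.025 for C1galt1, -0.13 to 0.045 for C1galt1c1, -0.0077 to 0.18 for Galnt1, 0.035 to 0.37 for Galnt10, -0.048 to 0.28 for Galnt11, -0.12 to 0.21 for Galnt2, -0.0077 to 0.097 for Galnt4, -0.15 to 0.057 for Galnt7 and -0.0825 to 0.22 for Gcnt1. The cause was not tested. At a mean of at least 5 FPKM, Galnt4, Galnt10 and Gcnt1 are not tested and get no value.

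Over all genes, 4 passed with the most abundant transcript and 0 to 1 with a library left out, the 1 being without Ac4ManNAz replicate 2. Over all transcripts, 9 passed, against 15 by eBayes without trend, 2 at a mean of at least 5 FPKM and 4 to 14 with a library left out. With the replicate number as a block, 0 genes passed (217 at an unadjusted p under 0.05), 0 enzyme genes and 1 transcript. Same-numbered libraries correlated at 0.064, 0.019 and 0.261 in their deviations from the group means, and differently numbered ones at -0.174 to 0.084. Deviations from a mean of 3 libraries are tied to each other, so these values cannot decide whether the numbers pair the libraries. Fragments were fewest for Galnt3, at 0 to 2 a library, too few to read a difference.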
